A study of Mus musculus with 8 samples.

Results

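Claudins and their partners build the tight junction, the seal between neighbouring epithelial cells. The 10 genes described here are Cldn2, Cldn3, Cldn4, Cldn7, Cldn8, Cldn15, Cldn23, Ocln, Tjp1 and F11r. They were taken by name from a list of claudin and tight junction genes. That list was chosen with earlier results of these data known. All 10 are among the 23366 gene symbols of each count table. RNA was sequenced from intestinal epithelial cells of male littermates aged 6 weeks, all homozygous for a floxed Sox4 allele (Sox4fl/fl). The Sox4cKO animals also carried vilCre, a Cre recombinase driven by the villin promoter, which deletes Sox4 throughout the intestinal epithelium and from embryonic life on, whereas control animals carried the floxed alleles alone. CD326+ epithelial cells of each animal were sorted into a CD44+ gate enriched for crypt cells (CD44plus) and a CD44- gate enriched for villus cells (CD44minus), with 50000 cells per library. The 4 groups, Sox4cKO CD44plus, control CD44plus, Sox4cKO CD44minus and control CD44minus, have 2 libraries each, from 2 animals of each genotype, and the study asked how loss of Sox4 alters each compartment.

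Claudins span the membrane of both cells that meet at a junction and decide which ions and how much water pass between the cells. Some, such as Cldn2 and Cldn15, line channels for small cations and water, and others, such as Cldn3 and Cldn4, tighten the seal. Ocln (occludin) stabilises the strands, F11r (JAM-A) is an immunoglobulin-family adhesion molecule that helps to set them in place, and Tjp1 (ZO-1) is the scaffold that ties them to actin. In the intestine the set of claudins shifts along the axis from crypt to villus, and Cldn2 is known as a crypt claudin.

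The windows before the transcription starts of Cldn2, Ocln and F11r are shown because these genes differed between the crypt and villus gates within libraries, as described below. Each is the 250 bases upstream of the start, from RefSeq on GRCm38.p6. Cldn2 is chrX:139800558-139800807 on the plus strand, Ocln is chr13:100552719-100552968 on the minus strand and F11r is chr1:171437311-171437560 on the plus strand. Capitals mark 2 motifs in Cldn2, the CDX-type TTTATG at position 7 and the TATA box TATAAA at position 216, counted from 1 at the 5′ end.
Cldn2: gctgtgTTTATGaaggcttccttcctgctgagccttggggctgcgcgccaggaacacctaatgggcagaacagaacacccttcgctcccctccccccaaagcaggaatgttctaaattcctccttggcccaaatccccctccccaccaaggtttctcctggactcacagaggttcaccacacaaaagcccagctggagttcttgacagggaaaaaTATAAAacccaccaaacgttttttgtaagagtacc
Ocln: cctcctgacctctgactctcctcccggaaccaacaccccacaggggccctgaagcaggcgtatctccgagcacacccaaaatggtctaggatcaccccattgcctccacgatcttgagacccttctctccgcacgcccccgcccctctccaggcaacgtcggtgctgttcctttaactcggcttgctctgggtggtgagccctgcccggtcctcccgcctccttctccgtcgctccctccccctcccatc
F11r: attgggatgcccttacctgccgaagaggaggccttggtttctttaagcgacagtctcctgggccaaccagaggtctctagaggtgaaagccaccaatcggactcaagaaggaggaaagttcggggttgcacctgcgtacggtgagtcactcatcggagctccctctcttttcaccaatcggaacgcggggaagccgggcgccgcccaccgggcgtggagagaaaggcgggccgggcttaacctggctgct
The search took 5 motifs on both strands. Of 32851 promoter windows of this length, 12.4% held the TATA box and 10.8% the CDX-type motif. The SOX-type motif ACAAAG was in 16.5% of windows, a variant of it, ACAATG, was found in 10.7%, and the HNF4-type motif CAAAGTCCA was found in 0.384%. Of the 10 genes, 8 have a window in the table, with 10 windows in all, and apart from the pair in Cldn2 the only match was ACAAAG at position 128 of Cldn4. The Cldn2 window held 52% G and C and 4 CpG dinucleotides, against 64% and 14 in the Ocln window shown and 60% and 17 in F11r. Another Ocln window, starting at chr13:100552499, had 69.2% and 22. Cldn2 was not alone in its composition, since the Cldn7 window starting at chr11:69964529 had 51.2% and 6. The median over all windows was 52.4% with 6 CpG, and over the 10 windows of these genes 60.8% with 9.5. A match of letters is a description and does not show that a factor binds.

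The unit of the levels is CPM, a gene's reads at 1 common library size, scaled with TMM factors (trimmed mean of M values), with replicate 1 before replicate 2 throughout. The deletion and the sort were visible in the libraries. Sox4 had 17.8 and 25.7 CPM in Sox4cKO CD44plus libraries, against 128 and 120.2 CPM in control CD44plus libraries. Cd44, the sorted marker, had 203 to 327 CPM in the 4 CD44plus libraries and 5.72 to 27.2 CPM in the 4 CD44minus libraries. Total gene counts were 6007554 to 13238050 in CD44plus libraries, but 1175251 and 6963345 in Sox4cKO CD44minus and 886194 and 2327002 in control CD44minus libraries. Odorant and vomeronasal receptor genes, which epithelium should not express, summed to 67.2 to 353 CPM of gene counts, not TMM-scaled, in CD44plus libraries. They summed to 4065 and 183 CPM in Sox4cKO CD44minus and 3576 and 1345 CPM in control CD44minus libraries. Sox4cKO CD44minus replicate 2 thus stood apart from its replicate 1 in depth and background, and results that rest on these libraries are given with and without each of them.

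**Figure D1:**
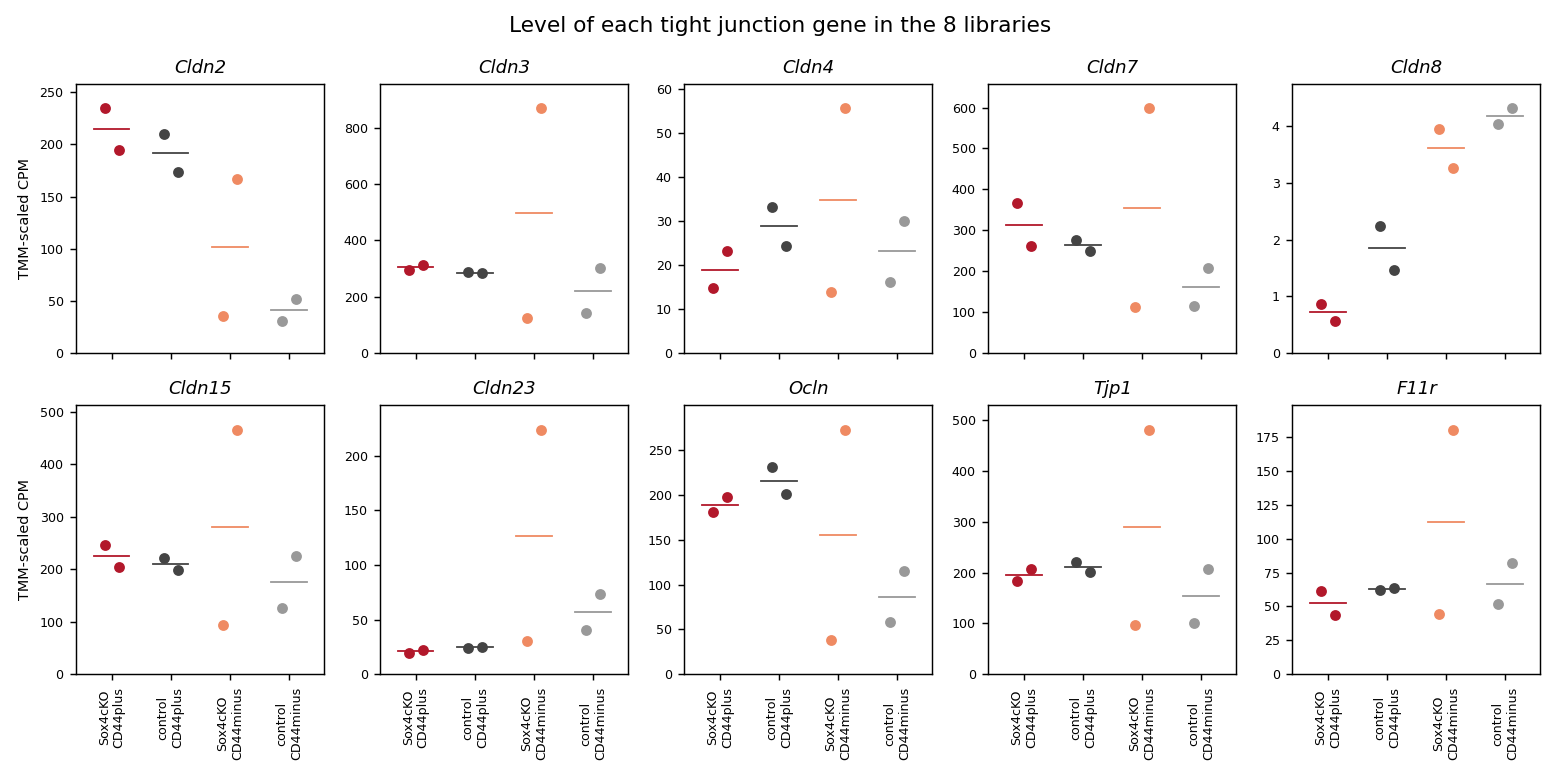
TMM-scaled CPM (vertical axis, linear from 0, own scale per gene) of the 10 genes in the 4 groups of genotype and gate; points are libraries (replicate 1 left, replicate 2 right) and bars are means of 2. In Sox4cKO CD44minus the 2 replicates lie far apart for 9 genes, for example 124 and 871 CPM for Cldn3. For these 9 genes the 2 replicates of each CD44plus group lie closer together, though those of Sox4cKO CD44plus still differ visibly for Cldn4 and Cldn7.

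Per kilobase of exon, the order of the levels in CD44plus cells was the same in all 4 libraries for 7 genes. Cldn3 led with 226 to 249 CPM per kb, followed by Cldn7 (128 to 188), Cldn15 (93.9 to 116), Cldn2 (52.2 to 70.6), Ocln (42.7 to 54.5), Tjp1 (23.4 to 28.3) and F11r (16.4 to 24). The ranges of Tjp1 and F11r overlapped, as did those of Cldn2 and Ocln, so neighbours in this order are close. Cldn4 (8.04 to 18.3) and Cldn23 (10.8 to 13.7) exchanged ranks 8 and 9, and Cldn8 came last with 0.241 to 0.948 CPM per kb. In CD44minus cells the ranges were wide, but Cldn3 was again first and Cldn8 again last in 4 of 4 libraries. Cldn2 stood at rank 4 in every CD44plus library and at ranks 7 to 9 in the CD44minus libraries. Cldn23 stood at ranks 8 to 9 in CD44plus and at ranks 4 to 5 in CD44minus libraries.

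Channel-forming claudins come first. Cldn2, which forms pores for cations and water (chrX:139800828-139811386, plus strand, GENCODE M21 on GRCm38, as are all gene positions below), had 235 and 194 CPM in Sox4cKO CD44plus and 210.1 and 174 CPM in control CD44plus libraries. It had 35.7 and 167 CPM in Sox4cKO CD44minus and 30.3 and 51.9 CPM in control CD44minus libraries. All 4 CD44plus libraries were above all 4 CD44minus libraries, as they were for 17.1% of all genes tested. Cldn15, the other cation channel claudin of the gut (chr5:136966616-136975858, plus strand), had 246 and 205 CPM in Sox4cKO CD44plus and 221 and 199 CPM in control CD44plus libraries. It had 94.1 and 466 CPM in Sox4cKO CD44minus and 127 and 225 CPM in control CD44minus libraries, so that the gates overlapped in both genotypes.

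Among the sealing and structural claudins, Cldn3 (chr5:134986214-134987472, plus strand) had 295 and 314 CPM in Sox4cKO CD44plus and 287 and 284 CPM in control CD44plus libraries. In the other gate it had 124 and 871 CPM in Sox4cKO CD44minus and 141 and 301 CPM in control CD44minus libraries. Its exon overlaps the antisense gene Wbscr25 by 40 bases, and whether reads were counted by strand is not given in the sources used here. Cldn7 (chr11:69964779-69967885, plus strand), which binds EpCAM, the antigen CD326 used for the sort, had 366 and 261 CPM in Sox4cKO CD44plus and 276 and 249.7 CPM in control CD44plus libraries. It had 111 and 599 CPM in Sox4cKO CD44minus and 114 and 208 CPM in control CD44minus libraries. Both genes were high in every library, and neither separated the gates in Sox4cKO cells.

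Cldn4 (chr5:134945119-134946934, minus strand), a claudin that limits sodium passage, was a low gene. It had 14.6 and 23.2 CPM in Sox4cKO CD44plus and 33.2 and 24.3 CPM in control CD44plus libraries, and 13.9 and 55.6 CPM in Sox4cKO CD44minus and 16.2 and 29.9 CPM in control CD44minus libraries. Cldn23 (chr8:35824712-35826559, minus strand), a less studied claudin, had 20.0 and 22.1 CPM in Sox4cKO CD44plus and 24.2 and 25.4 CPM in control CD44plus libraries. It had 30.2 and 224 CPM in Sox4cKO CD44minus and 40.4 and 73.5 CPM in control CD44minus libraries. Every CD44minus library was above every CD44plus library for Cldn23, the opposite of Cldn2, as for 9.64% of all genes tested. Cldn8 (chr16:88560828-88563183, minus strand), known from the distal colon and the kidney collecting duct, had only 6 to 25 reads per library.

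Of the partners, Ocln (chr13:100496507-100552718, minus strand) had 180.2 and 197 CPM in Sox4cKO CD44plus and 230.3 and 201 CPM in control CD44plus libraries. It had 38.6 and 272 CPM in Sox4cKO CD44minus and 57.9 and 115 CPM in control CD44minus libraries. Tjp1 (chr7:65296165-65527781, minus strand) had 183 and 207 CPM in Sox4cKO CD44plus and 221 and 202 CPM in control CD44plus libraries, and 96.6 and 481 CPM in Sox4cKO CD44minus and 102 and 206 CPM in control CD44minus libraries. The gates did not overlap for Ocln in control cells and overlapped for Tjp1 in both genotypes. F11r (chr1:171437535-171464603, plus strand) had 61.0 and 43.8 CPM in Sox4cKO CD44plus and 62.5 and 63.9 CPM in control CD44plus libraries, and 44.6 and 180.1 CPM in Sox4cKO CD44minus and 51.9 and 81.8 CPM in control CD44minus libraries.

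The comparison of the gates asks how the junction genes differ between crypt-enriched and villus-enriched cells. With the spread estimated from all 8 libraries, edgeR's quasi-likelihood test with Benjamini-Hochberg adjustment called 529 of 20427 genes in Sox4cKO cells, which is 2.59%, and none of the 10 junction genes. The log2 fold change of CD44plus over CD44minus was 1.08 for Cldn2 (SE 0.78, adjusted p = 0.445 in edgeR) and -2.60 for Cldn23 (SE 0.77, adjusted p = 0.0826). Cldn23 was the 1 gene of the 10 with an unadjusted p under 0.05 there. In control cells edgeR called 502 genes, or 2.46%, and again none of the 10. There the log2 fold change was 2.22 for Cldn2 (SE 0.82, adjusted p = 0.138), 1.32 for Ocln (SE 0.86, adjusted p = 0.316) and -1.20 for Cldn23 (SE 0.74, adjusted p = 0.299), and Cldn2 was the 1 gene with an unadjusted p under 0.05. The median log2 fold change of the 10 genes was -0.64 in Sox4cKO cells and 0.34 in control cells, beside -0.48 and -0.19 over all genes tested.

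The 2 Sox4cKO CD44minus libraries set much of the spread of that fit. Its biological coefficient of variation was 0.616, and it was 0.291 when the 4 control libraries were fitted alone. In that fit, edgeR called Cldn2 and Ocln higher and Cldn23 lower in CD44plus cells. The log2 fold changes were 2.01 for Cldn2 (SE 0.43, adjusted p = 2.96e-05), 1.12 for Ocln (SE 0.44, adjusted p = 0.0251) and -1.42 for Cldn23 (SE 0.33, adjusted p = 0.000138). The same fit called 24.4% of 18006 genes higher and 30.4% lower, so 3 calls among 10 genes are not more than its background. The other 7 genes did not pass, with log2 fold changes of 0.51 (SE 0.48) for Cldn7 and -0.29 (SE 0.35) for F11r among them. In Sox4cKO cells, a fit of the 4 libraries called none of the 10 genes and none of 16814 genes, with a coefficient of variation of 0.766 and 2154 genes at an unadjusted p under 0.05. Left without Sox4cKO CD44minus replicate 1, the Sox4cKO comparison called Cldn4, Cldn23 and F11r lower in CD44plus cells beside 8.25% of genes, and left without replicate 2 it called Cldn2, Ocln and Cldn7 higher beside 25% of genes. The control comparison called Cldn2 and Ocln higher and Cldn23 lower in both of these fits, beside 24.1% of genes higher and 12.3% lower without replicate 1 and 22.8% higher and 11.8% lower without replicate 2. For 6 of the 10 genes the sign of the Sox4cKO fold change in the fit without replicate 2 was the opposite of that with all libraries.

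Other settings with all 8 libraries moved the same genes past the threshold. DESeq2 called Cldn23 in Sox4cKO cells, where it called 5.12% of genes lower, and Cldn2 in control cells, where it called 5.57% higher. Without TMM factors, edgeR called Cldn2 higher and Cldn23 lower in both genotypes, beside 6.37% of genes higher and 3.61% lower in Sox4cKO cells and 6.93% higher and 3.3% lower in control cells. The log2 fold change of Cldn2 was then 1.27 (SE 0.24) in Sox4cKO and 1.69 (SE 0.26) in control cells, and that of Cldn23 was -2.28 (SE 0.37) in Sox4cKO and -1.72 (SE 0.37) in control cells. After subtraction of the background predicted from receptor genes by exon length, edgeR called Cldn23 in Sox4cKO cells beside 1.51% of genes lower, and Cldn2 in control cells beside 6.15% higher. By their coding length it called both genes in both genotypes, beside 8.02% higher and 2.61% lower in Sox4cKO and 8.93% higher and 2.66% lower in control cells. Cldn23 was also called in Sox4cKO cells with RLE scaling, beside 1.53% of genes lower, and without the filter on low counts, beside 1.56% lower.

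Groups that do not overlap are common in these data. In Sox4cKO cells 21.1% of genes were higher and 16.2% lower in both CD44plus libraries than in both CD44minus libraries, and among the 10 genes Cldn2 was higher and Cldn8 and Cldn23 lower. In control cells the shares over all genes were 38.7% higher and 41% lower, and among the 10 genes Cldn2, Cldn7 and Ocln were higher and Cldn8 and Cldn23 lower. Known villus enterocyte genes moved with the gates too: the summed level of 15 such genes was 2101 to 2789 CPM in CD44plus libraries, and 13314 and 68247 CPM in Sox4cKO CD44minus and 16244 and 31686 CPM in control CD44minus libraries. The summed level of 12 stem and cell cycle genes was 7635 to 9902 CPM in CD44plus and 432 to 789.5 CPM in CD44minus libraries. In sorted bulk cells, fewer cells of a type and less RNA per cell cannot be told apart.

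**Figure D2:**
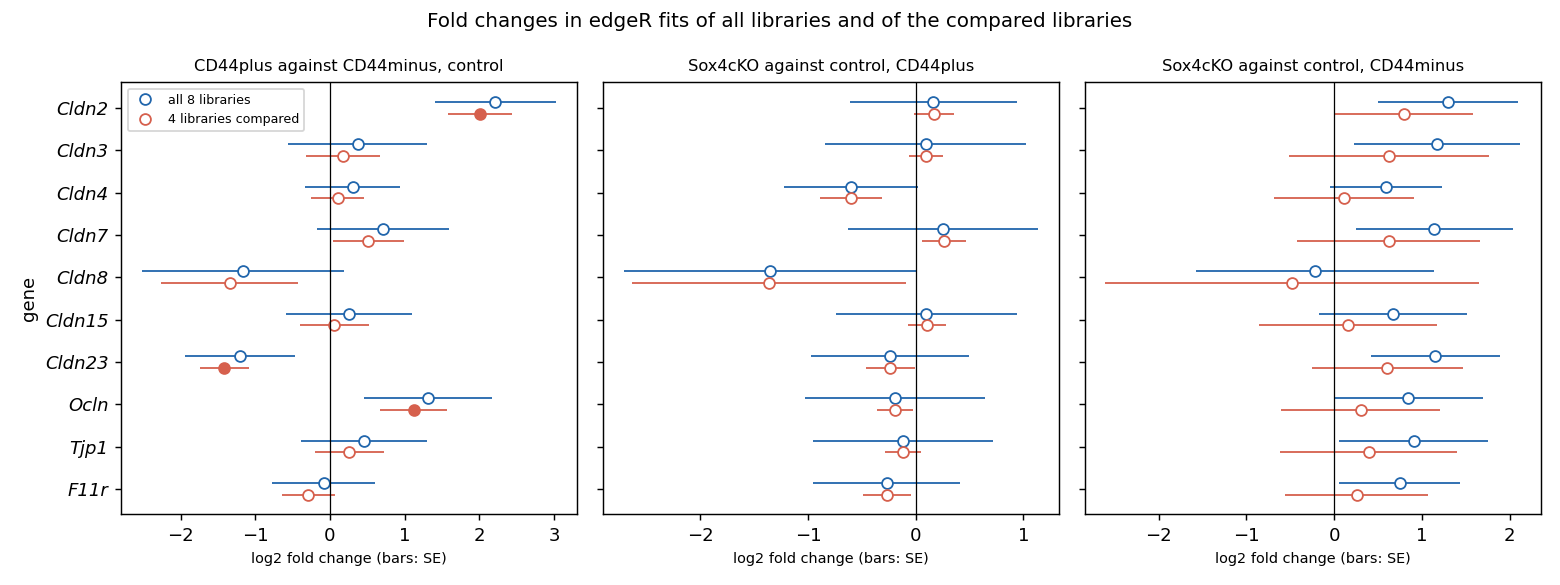
Log2 fold change (horizontal axis, bars are SE) of the 10 genes in 3 comparisons, from edgeR fits of all 8 libraries (blue) and of the 4 libraries compared (red); filled points have an adjusted p under 0.05. Filled points appear for Cldn2, Cldn23 and Ocln in the control gate comparison fitted on 4 libraries, and nowhere else.

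Because depth, background and scaling differed between libraries, the genes were also set against each other within a library. Each gene's reads were expressed as a share of the summed reads of the 10 genes, which was 11073 and 15494 in Sox4cKO CD44plus, 17544 and 7800 in control CD44plus, 1197 and 12178 in Sox4cKO CD44minus and 1016 and 3296 in control CD44minus libraries. This measure was chosen after the levels had been seen, is free of library scaling, and has the property that a higher share of 1 gene lowers the others. Intervals are exact binomial 95% intervals and cover counting error only. By this measure the ratio between the gates kept its side of 1 in all 4 animals for 9 of the 10 genes. It was above 1 for 2 genes and below 1 for 7, and some ratios were close to 1. Shares are tied to each other by that property, and the same count over all genes was not made, so these counts have no background. Shares did not overlap between the gates for 2 genes that were higher and 3 that were lower in CD44plus libraries.

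Cldn2 made up 14.7% and 13.2% of the reads of the 10 genes in Sox4cKO CD44plus and 13.4% and 12.2% in control CD44plus libraries. In CD44minus libraries it made up 6.02% (interval 4.74% to 7.52%) and 5.03% (4.65% to 5.44%) in Sox4cKO and 4.43% (3.25% to 5.88%) and 4.005% (3.36% to 4.73%) in control cells. The share was 2.44 to 3.04 times as large in CD44plus as in CD44minus cells of the same animal, and no CD44minus interval reached the lowest CD44plus share. Ocln made up 11.3% and 13.4% in Sox4cKO CD44plus and 14.7% and 14.1% in control CD44plus libraries, and 6.52% and 8.2% in Sox4cKO CD44minus and 8.46% and 8.86% in control CD44minus libraries. Its share was 1.59 to 1.74 times as large in CD44plus cells.

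Shares ran the other way for Cldn23 and F11r. Cldn23 made up 1.25% and 1.5% in Sox4cKO CD44plus and 1.54% and 1.78% in control CD44plus libraries, and 5.1% and 6.74% in Sox4cKO CD44minus and 5.91% and 5.67% in control CD44minus libraries. The ratio of CD44plus to CD44minus was 0.223 to 0.314 per animal. F11r made up 3.81% and 2.98% in Sox4cKO CD44plus and 3.98% and 4.49% in control CD44plus libraries, and 7.52% and 5.43% in Sox4cKO CD44minus and 7.58% and 6.31% in control CD44minus libraries. Its ratio was 0.507 to 0.711. For both genes every CD44minus library was above every CD44plus library. Tjp1 was also lower without overlap, at 11.4% and 14.1% in Sox4cKO CD44plus and 14.1% and 14.2% in control CD44plus libraries, and 16.3% and 14.5% in Sox4cKO CD44minus and 14.9% and 15.9% in control CD44minus libraries. Its gates were apart by less than counting error, since the interval of Sox4cKO CD44minus replicate 2 (13.9% to 15.1%) held the highest CD44plus share. Reads of all genes set against the summed reads of the 10 in the same way were higher without overlap in the CD44plus libraries for 14.5% of genes and lower for 8.33%. Changes common to the 10 genes cancel in their own shares only, so these percentages are not a like background.

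The shares of the 5 remaining genes overlapped between the gates. The ratio of CD44plus to CD44minus was nevertheless below 1 in all 4 animals for Cldn3 (0.814 to 0.889), Cldn15 (0.759 to 0.995), Cldn4 (0.390 to 0.944) and Cldn8 (0.0811 to 0.393, on few reads), as it was for Tjp1 (0.700 to 0.974). It was above 1 in 3 of 4 animals for Cldn7, at 0.986 to 1.22. With 4 paired animals, the smallest two-sided p that an exact permutation test can give is 0.125, so no p is given for single genes. Reads set against those of Epcam in place of the sum gave ratios of 2.22 to 2.74 for Cldn2, 1.23 to 1.70 for Ocln, 0.222 to 0.242 for Cldn23 and 0.446 to 0.572 for F11r. On this scale Cldn15 (0.621 to 1.04) and Tjp1 (0.639 to 1.01) were above 1 in Sox4cKO animal 2. Cldn7 (0.842 to 1.11) was above 1 in both Sox4cKO animals and below 1 in both control animals. Cldn3, Cldn4 and Cldn8 stayed below 1 in all 4 animals.

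**Figure D3:**
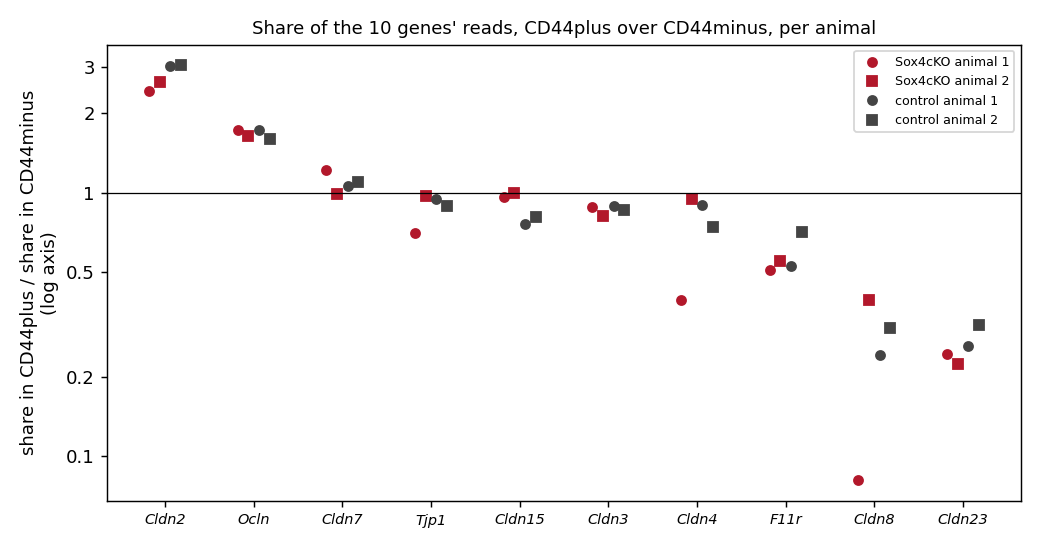
Ratio of each gene's share of the 10 genes' reads in CD44plus to that in CD44minus cells of the same animal (log axis; line at 1), for 2 Sox4cKO and 2 control animals. Cldn2 (2.44 to 3.04) and Ocln (1.59 to 1.74) lie above 1 in all 4 animals, and Cldn23 (0.223 to 0.314) and F11r (0.507 to 0.711) lie below it.

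The comparison of Sox4cKO with control CD44plus cells asks whether loss of Sox4 altered the junction genes where Sox4 was highest. With all 8 libraries edgeR called none of 20427 genes and none of the 10, with 128 genes and none of the 10 at an unadjusted p under 0.05, and DESeq2 also called none. Sox4 itself, the deleted gene, had a log2 fold change of -2.51 (SE 0.61, edgeR adjusted p = 1), so a missed threshold in this fit says little about a difference. The log2 fold change of Sox4cKO over control was -0.60 for Cldn4 (SE 0.62), -0.27 for F11r (SE 0.68), -0.24 for Cldn23 (SE 0.73) and -0.19 for Ocln (SE 0.84). It was 0.26 for Cldn7 (SE 0.88), 0.16 for Cldn2 (SE 0.77), 0.10 for Cldn15 (SE 0.84), 0.09 for Cldn3 (SE 0.93) and -0.12 for Tjp1 (SE 0.84), and the edgeR adjusted p was 1 for all 10. Fitted on the 4 CD44plus libraries alone, edgeR called 17 genes, all lower, which is 0.0997%, and again none of the 10. The SE there was 0.16 for Cldn3, Ocln and Tjp1, 0.18 for Cldn15, 0.19 for Cldn2 and 0.29 for Cldn4, with log2 fold changes between -0.60 and 0.26 for the 9 genes other than Cldn8.

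Some of these small differences did not overlap between genotypes. In CD44plus cells 14.2% of genes were higher and 16.4% lower in both Sox4cKO than in both control libraries. Of the 10 genes, Cldn3 was higher, and Cldn4, Cldn8, Cldn23, Ocln and F11r were lower. Those 5 genes and Tjp1 were lower without overlap when CPM was taken from library totals, beside 22.9% of all genes lower and 9.15% higher. The same 6 were lower when reads were set against the summed reads of the 10, beside 17.7% of genes lower and 10.2% higher. Cldn3 overlapped on both of those scales, and Cldn7 was higher without overlap on the second alone. The 10 genes make up the sum used for the second scale, so its percentages over all genes are not a like background. On that second scale the gaps were within counting error. For Tjp1 they were as small as 14.115% in Sox4cKO replicate 2 against 14.119% in control replicate 1. For each of the 6 genes and for Cldn7, the exact binomial 95% intervals of the nearest libraries overlapped. The summed level of 6 mast cell genes was 3684 and 17712 CPM in Sox4cKO CD44plus and 1909 and 3151 CPM in control CD44plus libraries. That of 12 T cell genes was 2443 and 5761 CPM in Sox4cKO CD44plus and 2248 and 3612 CPM in control CD44plus libraries. The part of these cells in the differences was not tested.

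In CD44minus cells, where Sox4 had 1.98 and 0.268 CPM in Sox4cKO and 6.74 and 8.26 CPM in control libraries, the genotype comparison turned on 1 library. In TMM-scaled CPM, Sox4cKO replicate 2 was the highest of the 4 CD44minus libraries for 9 of the 10 genes, and Sox4cKO replicate 1 the lowest for 8. The shares of all genes in these orders were not computed. The TMM factors of Sox4cKO replicates 1 and 2 were 1.72 and 0.527, which adds to these orders. In CPM from library totals replicate 2 was no longer highest for Cldn4 and Cldn15, nor replicate 1 lowest for Cldn7. Replicate 2 exceeded replicate 1 by 4.01 to 7.40 times in TMM-scaled CPM for the 9 genes other than Cldn8, and by 1.23 to 2.27 times in CPM from library totals. With all libraries edgeR called none of 20427 genes, with 116 and none of the 10 at an unadjusted p under 0.05, and DESeq2 called none. The log2 fold change of Sox4cKO over control was positive for 9 of the 10, between 0.59 (SE 0.64) for Cldn4 and 1.30 (SE 0.80) for Cldn2. The median was 0.88 over the 10 genes and 0.19 over all genes tested, of which 57.5% were positive. Without Sox4cKO replicate 1, edgeR called 9 of the 10 higher in Sox4cKO, beside 27.5% of 20228 genes, on the assumption that the lone library varies like the other groups. Without replicate 2 all 10 fold changes were negative and edgeR called no gene. No statement on the level of these genes in Sox4cKO villus cells can be drawn that holds for both libraries. Among all genes 6.52% were higher and 5.94% lower without overlap in Sox4cKO, and of the 10 only Cldn8 was lower.

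Shares of the reads of the 10 genes did not overlap between genotypes in CD44minus cells for 4 of the 10, Cldn2 and Cldn7 higher and Cldn15 and Ocln lower in Sox4cKO. Over all genes, reads set against the same sum were higher without overlap for 2.63% and lower for 4.89%. The 10 genes make up that sum, so changes common to them cancel in their shares but not in those of other genes. These percentages are therefore not a like background, and no excess is read from them. Cldn2 had 6.02% and 5.03% of the reads of the 10 genes in Sox4cKO CD44minus and 4.43% and 4.005% in control CD44minus libraries, but the interval of Sox4cKO replicate 1 (4.74% to 7.52%) overlapped that of control replicate 1 (3.25% to 5.88%). Cldn7 had 18.8% and 18.05% in Sox4cKO and 16.6% and 16.0% in control cells. Its interval in Sox4cKO replicate 1 (16.6% to 21.1%) overlapped that of control replicate 1 (14.4% to 19.1%). Cldn15 had 15.9% and 14.04% in Sox4cKO and 18.6% and 17.4% in control cells. Its interval in Sox4cKO replicate 1 (13.8% to 18.1%) overlapped those of control replicate 1 (16.3% to 21.1%) and replicate 2 (16.1% to 18.7%). Ocln had 6.52% and 8.2% in Sox4cKO and 8.46% and 8.86% in control cells, and the interval of Sox4cKO replicate 2 (7.72% to 8.7%) held the share of control replicate 1. With 2 animals each the smallest two-sided p an exact permutation test can give is 0.333. The difference of the genotype effect between the gates, tested as an interaction in edgeR, was called for none of 20427 genes, with 50 and none of the 10 at an unadjusted p under 0.05, and DESeq2 called none. It was negative for all 10 genes, from -1.39 (SE 1.04) for Cldn23 to -0.57 (SE 1.19) for Cldn15. Of all genes tested only 34.9% had a positive value, so most genes shared this direction. The median was -1.06 over the 10 genes and -0.37 over all genes tested. Without Sox4cKO CD44minus replicate 2 the interaction was positive for 9 of the 10, beside a median of 0.056 over all genes tested. Without Sox4cKO CD44minus replicate 1 it was called for Cldn23 alone of the 10, at -2.17 (SE 0.50, adjusted p = 0.0446), beside 0.509% of genes called in that direction. These comparisons share libraries and are not independent.

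Cldn8 was compared with the background of the libraries because its counts were low. It had 6 and 6 reads in Sox4cKO CD44plus, 25 and 8 in control CD44plus, 8 and 12 in Sox4cKO CD44minus and 6 and 11 in control CD44minus libraries. Reads of the receptor genes per kilobase of their coding sequence predicted 4.13 and 1.36 in Sox4cKO CD44plus, 5.35 and 2.44 in control CD44plus, 7.28 and 1.94 in Sox4cKO CD44minus and 4.83 and 4.77 in control CD44minus libraries. The exact Poisson 95% interval of the count held the predicted value in 3 libraries and lay above it in 5. With the annotated exon length of the receptors, the prediction is 3.44 times smaller and all 8 intervals lay above it. For the other 9 genes the predicted background was at most 20.0% of the reads in Sox4cKO CD44minus replicate 1, 15.5% in control CD44minus replicate 1 and 5.1% in any other library.

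**Figure D4:**
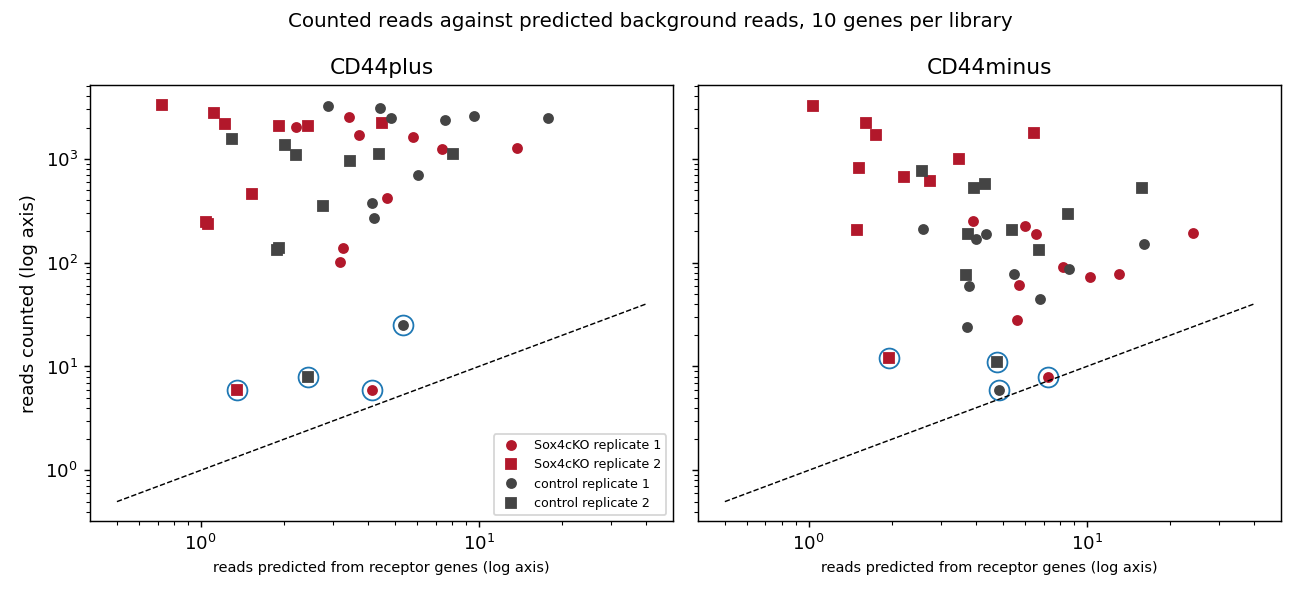
Reads counted (vertical, log axis) against background reads predicted from receptor genes per kilobase of coding sequence (horizontal, log axis) for the 10 genes in CD44plus (left) and CD44minus (right) libraries; the dashed line marks equality and circles mark Cldn8. Cldn8, with 6 to 25 reads, lies above the line by less than the counting interval in 3 libraries and by more in 5. Within each library the other 9 genes lie farther above the line than Cldn8.

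The wider junction genes were read from 4 lists, and none of their 72 tested genes was called by edgeR's fit of all 8 libraries in any comparison. Unadjusted, 6 had a p under 0.05 in the Sox4cKO and 7 in the control gate comparison, none in either genotype comparison and 1 in the interaction. Of the other claudins, 18 were in the tables and 16 of these never exceeded 34 reads in a library. Cldn12, a claudin that lacks the usual scaffold-binding tail, was the clear exception, with 54.7 and 36.1 CPM in Sox4cKO CD44plus and 54.8 and 46.9 CPM in control CD44plus libraries, and 19.8 and 45.5 CPM in Sox4cKO CD44minus and 21.6 and 21.6 CPM in control CD44minus libraries. Its log2 fold change of CD44plus over CD44minus in control cells was 1.24 (SE 0.58, edgeR adjusted p = 0.212). The symbol Cldn25, the other one above 100 reads, can stand for more than 1 gene and is not described.

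Among 33 further tight junction genes, the smallest unadjusted p in the control gate comparison belonged to Amot, Prkci, Amotl1 and Ildr2. Amot, an angiomotin that binds polarity proteins, had a log2 fold change of 1.96 (SE 0.70, edgeR adjusted p = 0.129), and Prkci, the atypical protein kinase C of the polarity complex, had 1.81 (SE 0.69, adjusted p = 0.148). Amotl1 and Ildr2 went the other way, at -2.02 (SE 0.82, adjusted p = 0.166) and -2.66 (SE 1.12, adjusted p = 0.18). Of the 33 genes, 14 had a positive and 19 a negative value in control cells, and 4 and 29 in Sox4cKO cells. Their medians were -0.31 in control and -0.92 in Sox4cKO cells, beside -0.19 and -0.48 over all genes tested. In control cells Prss8, the membrane protease prostasin, had a log2 fold change of 1.92 (SE 0.57, adjusted p = 0.0797), and Epcam had 0.90 (SE 1.17, adjusted p = 0.587). Cdh1 (E-cadherin) and Ctnnb1 (beta-catenin), of 17 adherens junction and desmosome genes, had 1.38 (SE 1.15) and 1.11 (SE 1.00). Between genotypes in CD44plus cells the smallest unadjusted p of the 33 belonged to Amotl2, at -0.90 (SE 0.61, adjusted p = 1). The median log2 fold change in that comparison was -0.16 for the 33 genes and -0.16 for the 10, beside -0.00052 over all genes tested.

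The genes whose pattern was most like each member were taken as the 3 highest Pearson correlations of log2(CPM + 1) over the 8 libraries, among 10900 genes with a mean of at least 10 CPM. The 8 points share the 4 groups, the depth differences and Sox4cKO CD44minus replicate 2, so the values are high throughout and are given as a description. Cldn2 was most like Anapc1, Ssr1 and Usp10 (all at 0.997). Cldn23 was most like Klc4, Evpl and Hnf4g, at 0.994 to 0.996, and F11r most like A1cf, Trim16 and Ccdc85c. Cldn3 was most like March6, Pja1 and Ncln, Cldn7 like Fam108c, Ndufs1 and Dsc2, Cldn15 like Gclm, Epb4.1l4b and Plbd1, and Tjp1 like Sptan1, Cyth2 and Cdc42ep5. Cldn4 was most like Kctd14, Nr1d2 and Mlxipl, at 0.969 to 0.988. The matches of Cldn8, Cped1, Mro and Efcab5, rest on few reads.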

How the data were processed

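Total RNA of sorted cells was made into stranded libraries from low input, per the labels' protocols. Tools listed in the submitters' processing notes are STAR 2.2.5b, HTSeq 0.6.1p1, Trimmomatic 0.36 and bcl2fastq 2.17.4, with mm10 as the build. The authors deposited raw read counts per gene symbol, 1 table per library, ending in HTSeq's summary lines, which were left out of totals. Of uniquely placed reads, 64.6% to 96.6% per library were counted to no gene. Gene counts were 886194 to 13238050 per library, so 0 counts allow up to 3, or 0.227 to 3.39 CPM.

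Counts were fitted in R 4.3.3 with edgeR 4.0.16 (4 group means, TMM, filterByExpr with a minimum count of 10, quasi-likelihood test, Benjamini-Hochberg adjustment, threshold 0.05). limma 3.58.1 and DESeq2 1.42.0 served as alternatives. The scripts were tested on simulated data. The same animal gave both gates, by the animal numbers of the deposited tables; deviations from group means correlated between gates at 0.493 in Sox4cKO and 0.102 in control. Background came from 1430 receptor genes; the plan was their exon length, and their coding length was chosen after the exon-length fit had been seen. Symbols were matched to GENCODE M21, 21692 by name and 1270 by synonym. The members and lists were chosen with earlier results of these data known. Named genes are the 10 members, Sox4, Cd44 and Epcam, those of each list with the smallest unadjusted p and the 3 most alike per member; those of Ocln are not reported here. The motifs were chosen after the levels had been seen.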

Additional observations from a re-analysis of the deposited data

How the results depend on the processing

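Fold changes of the 10 genes in the 5 comparisons kept their sign and their side of the threshold in 693 of 790 recomputed values, passed the threshold with the same sign in 38 and changed sign in 59; the cause was not tested.

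The gate comparison in Sox4cKO cells called 529 genes and none of the 10. It called 1765 and 1 with DESeq2, 1 of the 10 with RLE scaling, 2039 and 2 with library totals, 884 and 1 without the filter, 0 genes in the 4 compared libraries, 1319 and 1 with background subtraction, and 1921 and 2 with that by coding length. Leaving out 1 library gave 11 to 8440 genes and 0 to 3 of the 10: 11 without Sox4cKO CD44plus replicate 2, 3379 and 8440 without Sox4cKO CD44minus replicate 1 or 2, 226 and 243 without control CD44plus replicate 1 or 2, and 298 without control CD44minus replicate 2. In control cells the comparison called 502 genes and none of the 10. It called 2199 genes and 1 of the 10 with DESeq2, 2091 and 2 with library totals, 994 genes without the filter, 9877 and 3 in the 4 compared libraries, 1492 and 1 with background subtraction, and 2092 and 2 with background subtraction by coding length. Leaving out 1 library gave 0 to 7362 genes and 0 to 3 of the 10: 7362 without Sox4cKO CD44minus replicate 1, 7138 without replicate 2 of that group, 34 and 0 when control CD44minus replicate 1 or 2 was dropped, 24 and 6 when control CD44plus replicate 1 or 2 was dropped, and 332 when replicate 2 of Sox4cKO CD44plus was. Cldn2 and Cldn23 made up the calls among the 10 in the settings with all 8 libraries.

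With the animal as replicate block, 1712 genes were called between the gates in Sox4cKO and 3659 in control cells, and none of the 10. The block, a random effect in limma for genotype, changed no other call. Between genotypes in CD44plus cells no gene was called with all libraries, 17 in the 4 compared libraries and 0 to 24 without 1 library. In CD44minus cells 0 to 7613 genes and 0 to 9 of the 10 were called without 1 library, and for the interaction 0 to 254 genes and 0 to 1 of the 10, where only the fit without Sox4cKO CD44minus replicate 1 gave calls.

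Log2 fold changes that changed sign were as follows. Between the gates in control cells they were, with library totals, Cldn3 -0.12 and Cldn4 -0.19 and Cldn15 -0.26 and Tjp1 -0.0456, and with background subtraction by coding length, Cldn3 -0.11 and Cldn4 -0.0451 and Cldn15 -0.23, and with RLE scaling, Cldn4 -0.000846 and Cldn15 -0.0561, and with DESeq2, Cldn15 -0.0562. In Sox4cKO cells they were, with library totals, Cldn7 0.0736, and with the replicate block, Cldn7 0.25 and Cldn15 0.0939, and with background subtraction by coding length, Cldn7 0.14, and with background subtraction, Cldn7 0.17 and Cldn15 0.0171. Between genotypes they were, in CD44plus cells, with library totals, Cldn3 -0.0147, in CD44minus cells, with library totals, Cldn4 -0.17 and Cldn15 -0.17 and Ocln -0.0637 and F11r -0.033, and with background subtraction by coding length, Cldn4 -0.11 and Cldn15 -0.13 and Ocln -0.00453, and for the interaction, with library totals, Cldn15 0.17, and with background subtraction by coding length, Cldn15 0.21. Without 1 library, the gate comparison ranged in control cells over Cldn15 -0.10 to 0.71, Cldn3 -0.082 to 1.01, Cldn4 -0.0616 to 0.82, F11r -0.38 to 0.27, and in Sox4cKO cells over Cldn15 -1.05 to 1.27, Cldn3 -1.52 to 1.31, Cldn4 -1.55 to 0.46, Cldn7 -0.93 to 1.502, F11r -1.78 to 0.24, Ocln -0.53 to 2.30, Tjp1 -1.30 to 1.02. The genotype comparison ranged in CD44plus cells over Cldn15 -0.15 to 0.22, Cldn2 -0.0978 to 0.31, Cldn7 -0.12 to 0.48, and in CD44minus cells over Cldn15 -0.92 to 1.38, Cldn2 -0.23 to 1.99, Cldn23 -0.94 to 1.94, Cldn3 -0.85 to 1.96, Cldn4 -0.76 to 1.22, Cldn7 -0.54 to 1.87, F11r -0.60 to 1.40, Ocln -1.18 to 1.63, Tjp1 -0.69 to 1.62. The interaction ranged over Cldn15 -1.28 to 1.01, Cldn2 -1.82 to 0.39, Cldn23 -2.17 to 0.70, Cldn3 -1.86 to 0.94, Cldn4 -1.82 to 0.16, Cldn7 -1.62 to 0.80, F11r -1.67 to 0.33, Ocln -1.82 to 0.98, Tjp1 -1.73 to 0.57. Scaling also moved the median of all genes in the control gate comparison, to -0.52 with RLE and -0.77 with library totals, from -0.19.

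The median share ratio over the animals kept its side of 1 without each animal and after background subtraction in all 10 genes. For Cldn7 single animals lay on both sides of 1. Per Epcam read, the median ratio of Cldn7 turned to 0.962. The medians of Cldn2 (2.45), Ocln (1.52), Cldn3 (0.780), Cldn15 (0.763) and Tjp1 (0.745) stayed on the same side. They shifted by at least 1 SD of the share ratios of the 4 animals. The ratios of Cldn15 and Tjp1 in Sox4cKO animal 2 crossed 1. Epcam ratios, shares, coding lengths and the libraries of doubt were chosen after seeing the data. CD44minus depth limits Cldn4 and Cldn8 most, with as few as 24 and 6 reads.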
